A study of Arabidopsis thaliana with 7 samples.

Results

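The genes described here are the nuclear ribosomal protein genes of Arabidopsis thaliana, taken from the RefSeq annotation of the TAIR10 genome. A gene was included when its annotated product contained "ribosomal protein" and no word for chloroplast, plastid, mitochondrion, kinase, methyltransferase, acetyltransferase or "related". Of 344 nuclear genes with such a product, 16 were left out, 15 of them because the product names an organelle, and 328 of the 27444 nuclear protein-coding genes (1.20%) were kept. The choice used only product names and no peak.

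The ribosome is built from a large and a small subunit, each an RNA scaffold carrying many different proteins, and in Arabidopsis almost every cytosolic ribosomal protein is encoded by several gene copies. These genes are among the most strongly transcribed in dividing cells, and mutants in single copies are known for pointed leaves, short roots and altered leaf polarity. Their promoters are known for 2 short elements, the telo-box and site II, whereas the E2F transcription factors recognise a different word and are known for the genes of DNA replication. RETINOBLASTOMA-RELATED (RBR) binds the E2Fs and holds their target genes in check, E2FA and E2FB are best known as activators, and E2FC is best known as a repressor.

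The data were 7 deposited lists of chromatin immunoprecipitation (ChIP-seq) peaks from untreated whole seedlings of the Col0 background. The plants carried pE2FA-E2FA-GFP, pE2FB-E2FB-GFP, pE2FC-E2FC-GFP or pRBR-RBR-GFP, in which the promoter of the gene itself drives a GFP fusion, and all were precipitated with the same GFP antibody (ab290). The labels give an age of 12 days, and the study's methods give a slightly older age for the same assay. E2FA, E2FB and RBR had 2 libraries each and E2FC had 1, and no library of input DNA or of plants without GFP was analysed here, so each peak was called against the surroundings within the same library. Replicate 1 was deposited as broad regions and replicate 2 as narrow peaks with summits, so that replicate and peak format cannot be told apart.

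The label "cytosolic" was only partly borne out by the annotation. From location notes and protein domains in the annotation, 183 of the 328 genes were cytosolic, 54 were organellar and 91 were not settled. The organellar ones have products that do not name the organelle, such as RPL12-C, a plastid ribosomal protein. By product name, 157 genes belonged to the large subunit and 113 to the small subunit, 27 had looser products (superfamily, domain, like, 50S or 30S) and 31 were none of these, among them proteins of the L7Ae/L30e family. The group is therefore called ribosomal protein genes throughout.

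The sequences that follow are examples of elements near the start sites of some of these genes. The telo-box windows come from genes that hold a telo-box, which was present at 37.5% of the ribosomal protein genes. The telo-box (AAACCCTA on either strand) is in capitals in 30-base windows of 6 genes from families known from growth genetics, namely RPS5A (chr3:3779540-3779569, minus strand), PFL (S18, chr1:8067868-8067897, plus strand), RPS18C (chr4:6173707-6173736, plus strand), RPL5B (chr5:15903271-15903300, plus strand), STV1 (L24, chr3:19661974-19662003, minus strand) and PGY2 (L9, chr1:12023238-12023267, plus strand). All are TAIR10 sequence from RefSeq, read 5′ to 3′ on the strand of the gene.
RPS5A: cattagagcccAAACCCTAaatttctcatc
PFL: attaggttggaAAACCCTAaatatgccgct
RPS18C: aaatcattgaaAAACCCTAgcagacctctt
RPL5B: caagagaactcTAGGGTTTtgtcttataag
STV1: atcgagagaatTAGGGTTTtctagtctagt
PGY2: tgaaagatattTAGGGTTTtttctcttgat
In these 6 genes the element lay close to the start site, with its first base at position -13 in RPS5A, 16 in PFL, 7 in RPS18C, 4 in RPL5B, 34 in STV1 and 25 in PGY2, counted from 1 at the first transcribed base. In the S5 family gene EMB3113, not printed here, it was farther away, at position -139. PFL had peaks in all 7 lists, RPS5A and RPS18C in 6, RPL5B and STV1 in 5, and PGY2 in none, so that genes with the same element spanned the whole range.

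E2F words were looked for in the same way. The words were TTTCCCGC, TTTCGCGC, TTTGCCGC and TTTGGCGC on either strand, and only 2 ribosomal protein genes held one between 250 bases before and 50 bases after the start site. They were EMB3126 (L1, chr3:23443971-23444000, plus strand) and RPS1 (S1, chr5:11621425-11621454, minus strand), both organellar by annotation. Their 30-base windows are shown with the E2F word in capitals.
EMB3126: ttctcttacggGCGGGAAAgaagaaactcg
RPS1: tacatatattcTTTCGCGCtgcgcagcttg
The first base of the word was at position -221 in EMB3126 and at position -145 in RPS1.

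The 3 genes of highest enrichment in replicate 2 are shown with the bases before their start sites, for AT4G17560 (L19, chr4:9779974-9780223, plus strand) and RPL12-C (chr3:10324538-10324787, plus strand) 250 bases and for AT3G18740 (L7Ae/L30e family, chr3:6453202-6453302, plus strand) the 101 bases up to the neighbouring gene. Capitals mark site II (TGGGCC or TGGGCT on either strand) in AT4G17560 and AT3G18740. In RPL12-C, which has none of the elements here, they mark an annotated proline tRNA gene.
AT4G17560: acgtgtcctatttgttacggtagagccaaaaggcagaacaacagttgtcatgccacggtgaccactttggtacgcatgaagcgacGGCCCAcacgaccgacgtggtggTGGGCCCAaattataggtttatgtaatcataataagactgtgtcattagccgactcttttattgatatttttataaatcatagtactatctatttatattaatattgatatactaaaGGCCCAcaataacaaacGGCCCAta
AT3G18740: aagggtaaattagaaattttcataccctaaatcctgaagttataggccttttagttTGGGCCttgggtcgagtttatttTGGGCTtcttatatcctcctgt
RPL12-C: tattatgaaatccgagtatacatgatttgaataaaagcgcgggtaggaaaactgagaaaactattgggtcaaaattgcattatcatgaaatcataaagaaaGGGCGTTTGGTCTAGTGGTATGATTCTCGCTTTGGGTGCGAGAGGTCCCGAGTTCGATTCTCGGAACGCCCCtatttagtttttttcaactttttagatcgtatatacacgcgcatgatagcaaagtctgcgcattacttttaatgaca

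The lists held between 24883 and 28742 peaks on the 5 nuclear chromosomes. Fold enrichment was low in replicate 1, where the median of a list lay between 1.62 and 1.81, and higher in replicate 2, where it lay between 2.65 and 3.06. Values were therefore compared only within a list, through the percentile of a peak among all nuclear peaks of that list. No test was made between the groups of genes, because each list is a single library and the genes are not replicates. Exact Clopper-Pearson intervals at 95% are given for shares and cover counting error only.

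Ribosomal protein genes had a peak within 500 bp of the start site more often than the other genes in all 3 lists of replicate 2, whereas replicate 1 was mixed. In replicate 2, an E2FA peak was found at 254 of the 328 ribosomal protein genes (77.4%, interval 72.5 to 81.8%), against 55.0% of the 27116 other genes. An E2FB peak was found at 275 of them (83.8%, 79.4 to 87.7%), against 59.9% of the others, and an RBR peak at 276 (84.1%, 79.7 to 87.9%), against 61.3%. Under every window tried, these shares stayed above those of the other genes.

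In replicate 1 the proteins differed. RBR peaks were found at 218 ribosomal protein genes (66.5%, 61.1 to 71.6%), against 54.1% of the other genes, and E2FB peaks at 194 (59.1%, 53.6 to 64.5%), against 52.1%. E2FA peaks were found at 158 (48.2%, 42.6 to 53.7%), against 49.1%, a value inside the interval. These replicate 1 orders depended on the window, and that of E2FA also on whether genes with a neighbouring start site were counted. At 1000 bp the share was 57.0% with E2FA, against 66.8% of the other genes, and 64.0% with E2FB, against 65.9%, whereas at 250 bp it was 32.6% with E2FA, against 31.8%, and 49.4% with E2FB, against 37.2%. E2FC peaks were found at 90 ribosomal protein genes (27.4%, 22.7 to 32.6%), against 38.0% of the others, a lower share than that of the other genes under every window tried. With 1 E2FC library, this value has no replicate.

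**Figure D1:**
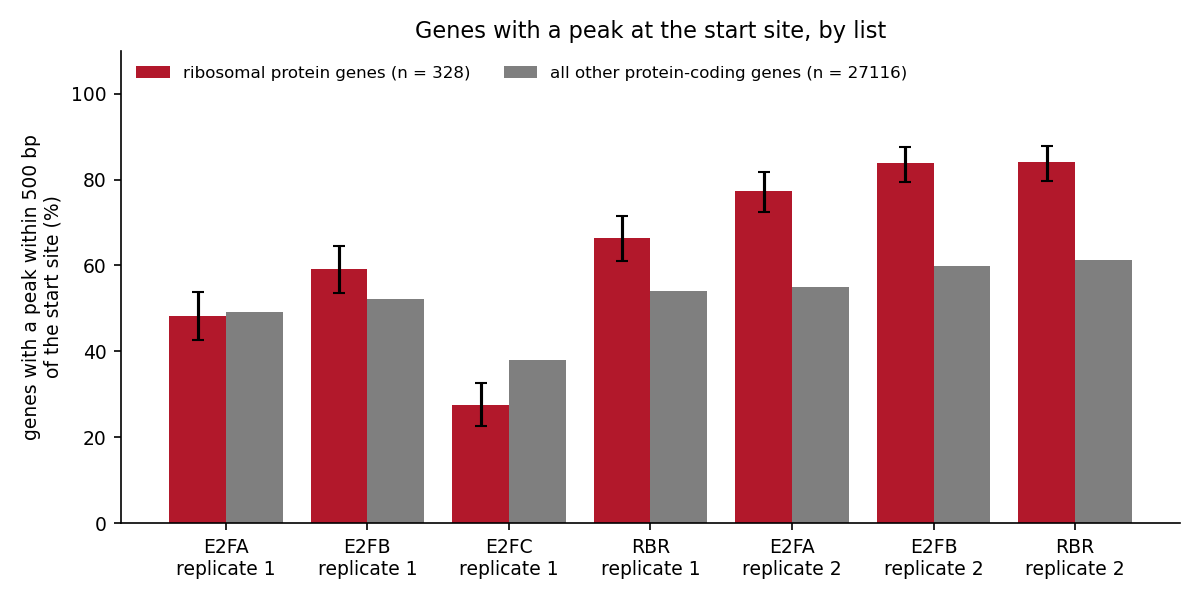
Percent of genes with a peak within 500 bp of the start site in each of the 7 lists, for the 328 ribosomal protein genes (red, bars with exact 95% intervals) and the 27116 other protein-coding genes (grey). The red bar is above the grey bar in all 3 replicate 2 lists and below it with E2FC, 27.4% against 38.0%.

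Over all lists together, ribosomal protein genes were seldom left without a peak, yet were not found in every list more often than other genes. All 7 lists held a peak at 56 of them (17.1%, 13.2 to 21.6%), against 17.8% of the other genes. All 4 lists of replicate 1 did so at 68 (20.7%), against 22.9%. All 3 lists of replicate 2 did so at 234 (71.3%), against 47.1%. No list held a peak at 23 (7.01%), against 20.5%. The median was 5 lists per ribosomal protein gene and 4 lists per other gene.

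The combinations in replicate 1 show where E2FC was missing. Of the 328 genes, 78 had no peak (23.8%, against 29.6% of the other genes) and 68 had all 4 proteins (20.7%, against 22.9%). E2FA, E2FB and RBR without E2FC were found at 62 (18.9%, against 13.7%). Only E2FB and RBR were found at 42 (12.8%, against 5.01%), and RBR alone at 31 (9.45%, against 5.37%). E2FC alone was found at 2 genes (0.610%), against 1006 of the other genes (3.71%). Leaving the E2FC list out raised the share of ribosomal protein genes with a peak in every remaining list to 34.5%, against 28.8% of the other genes.

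**Figure D2:**
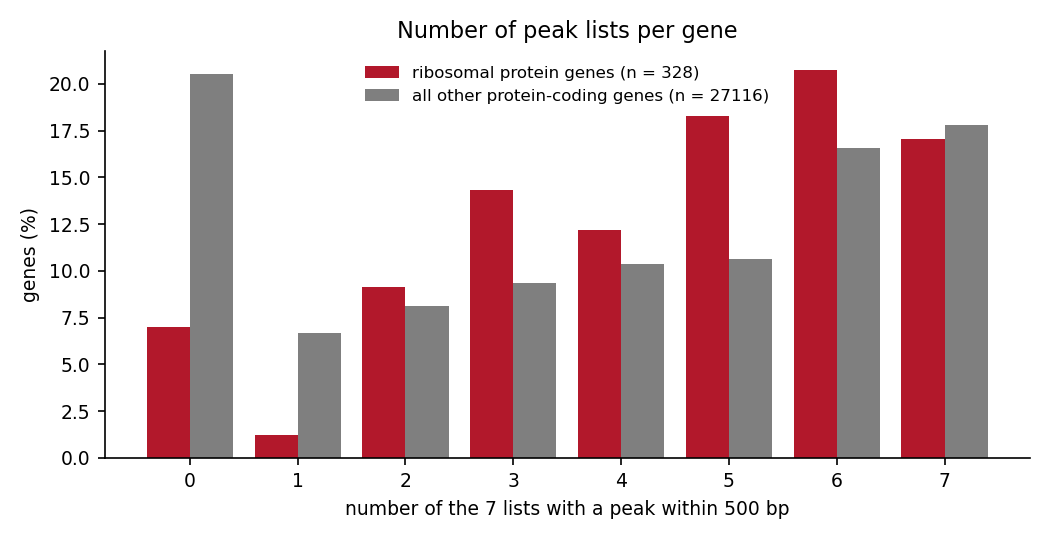
Percent of genes by the number of the 7 lists that hold a peak within 500 bp, for ribosomal protein genes (red) and other protein-coding genes (grey). The groups differ most at 0 lists, 7.01% against 20.5%, and are nearly level at 7 lists, 17.1% against 17.8%.

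The peaks of replicate 1 were largely found again at these genes in replicate 2. Of the ribosomal protein genes with a replicate 1 peak, 137 of 158 also had one in replicate 2 with E2FA (86.7%), 180 of 194 with E2FB (92.8%) and 205 of 218 with RBR (94.0%), against 73.5%, 84.4% and 86.3% of the other genes. In the other direction the shares were lower, and lower than those of the other genes. Of the ribosomal protein genes with a replicate 2 peak, 53.9% also had one in replicate 1 with E2FA, 65.5% with E2FB and 74.3% with RBR, against 65.6%, 73.5% and 76.1% of the other genes. A peak in both replicates or in neither was found at 57.9% of ribosomal protein genes with E2FA, 66.8% with E2FB and 74.4% with RBR. At the other genes these shares were higher, at 68.1%, 76.0% and 78.0%. The paired peaks of a ribosomal protein gene lay a median of 110 bp apart with E2FA, 70 bp with E2FB and 59 bp with RBR.

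Although frequent, the peaks at ribosomal protein genes were of modest height. The median percentile of fold enrichment was lower than that of the other genes with a peak in each of the 7 lists. In replicate 1 it was 32.6 with E2FA, 43.3 with E2FB, 46.5 with E2FC and 29.6 with RBR, against 50.5, 57.4, 50.6 and 53.1 at the other genes. In replicate 2 it was 47.9 with E2FA, 54.7 with E2FB and 55.4 with RBR, against 58.4, 61.7 and 59.3 at the other genes. The gap was widest with RBR in replicate 1, where 6 of 218 ribosomal protein genes (2.75%) were above the 90th percentile, against 9.45% of the other genes.

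The regions were also narrower. Their median width at ribosomal protein genes was 359 bp with E2FA, 309 bp with E2FB, 336 bp with E2FC and 318 bp with RBR in replicate 1, against 533, 473, 401 and 487 bp for peaks at other start sites. In replicate 2 it was 349 bp with E2FA, 427 bp with E2FB and 532 bp with RBR, against 457, 524 and 596 bp. Among the 1000 highest peaks of each list, between 2 and 9 lay near a ribosomal protein gene. They were 0.456 to 1.14% of those of the 1000 that lay near any protein-coding start site, whereas of all peaks near such a start site 0.948 to 1.84% lay near a ribosomal protein gene. With E2FC these shares were nearly level, at 0.973% (5 peaks) against 0.948%. In each of the other lists the share among the highest peaks was the lower one.

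The study counts as targets the genes at peaks of more than 3-fold enrichment with q below 0.01, and these thresholds separated the lists sharply. In replicate 1 they were passed by 3 ribosomal protein genes with E2FA (0.915%), against 1.12% of the other genes. With E2FB 1 gene passed (0.305%, against 0.251%), and none did with E2FC (against 0.214%) or RBR (against 0.0111%). In replicate 2 they were passed by 77 genes with E2FA (23.5%, against 24.1%), 167 with E2FB (50.9%, against 37.3%) and 174 with RBR (53.0%, against 38.0%). With the 10000 highest peaks of each list, ribosomal protein genes were less frequent than other genes in all 4 lists of replicate 1, at 8.23% against 17.97% with E2FA, 15.9% against 23.6% with E2FB, 10.98% against 15.5% with E2FC and 10.4% against 20.9% with RBR. In replicate 2 the same count gave 25.6% against 26.0% with E2FA, 30.2% against 28.5% with E2FB and 29.0% against 26.5% with RBR. Whether ribosomal protein genes appeared more or less often than other genes thus depended on the height of peak counted.

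**Figure D3:**
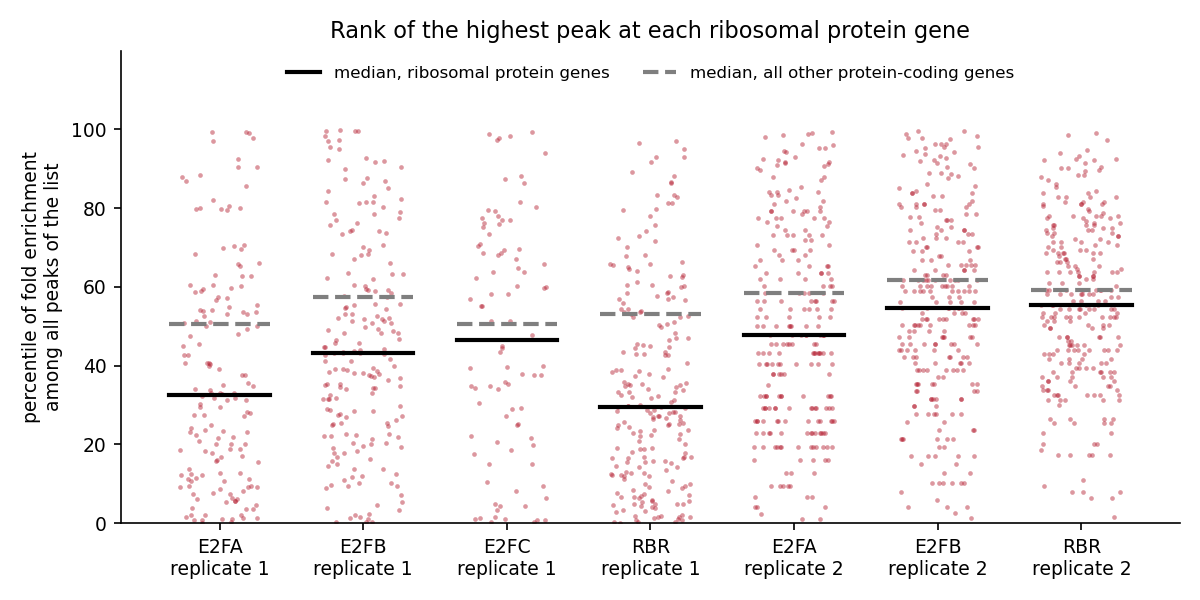
Percentile of fold enrichment of the highest peak within 500 bp of each ribosomal protein gene (red points, 1 per gene with a peak) among all nuclear peaks of its list, with the median of these genes (black line) and of the other protein-coding genes (grey dashed line). The black line lies below the grey line in all 7 lists, by most in RBR replicate 1 (29.6 against 53.1).

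The genes of DNA replication gave a scale for these values. MCM2 to MCM7, the subunits of the replicative helicase, had peaks in all 4 replicate 1 lists at 6 of 6 genes and in the 3 replicate 2 lists at 5 of 6, with median percentiles between 94.6 and 99.9. MCM2, for example, reached fold enrichments of 3.44 and 31.3 in the E2FA lists, and the median of the ribosomal protein genes was 1.65 and 2.60 in the same lists. Genes of photosynthesis, 60 in number, had peaks in replicate 2 about as often as ribosomal protein genes, at 80.0% with E2FA, 76.7% with E2FB and 85.0% with RBR. High shares in replicate 2 were therefore not found at ribosomal protein genes alone.

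Genes linked to ribosome biogenesis and translation control, none of them in the ribosomal protein set, were read from a fixed list of 17. In replicate 1, peaks were found at 13 of the 17 with E2FA, 13 with E2FB, 10 with E2FC and 14 with RBR. The shares of the 27116 genes outside the ribosomal protein set were 49.1%, 52.1%, 38.0% and 54.1%. In replicate 2, peaks were found at 14, 17 and 16 of the 17 with E2FA, E2FB and RBR, against shares of 55.0%, 59.9% and 61.3%. Nucleolin NUC-L1, which acts in ribosomal RNA synthesis, was the highest of the list in E2FB replicate 2, with a fold enrichment of 7.34. The kinase S6K2, which phosphorylates ribosomal protein S6, reached 5.20 with E2FA, 6.07 with E2FB and 5.94 with RBR in replicate 2. TCP20, a factor known to bind site II, had a peak in all 7 lists, and TRB1, a factor that binds telomeric repeats, in 5. The fibrillarin gene FIB2 had a peak in 2 lists and its copy FIB1 in 6.

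The genes that were not settled had a lower share with a peak than the cytosolic and the organellar genes in every list but that of E2FC. The 183 cytosolic genes had peaks at 50.8% with E2FA, 62.3% with E2FB, 28.4% with E2FC and 70.5% with RBR in replicate 1, and at 78.7%, 87.4% and 88.0% with E2FA, E2FB and RBR in replicate 2. The 54 organellar genes had a peak at 27 genes with E2FA, and 63.0%, 25.9% and 64.8% with E2FB, E2FC and RBR in replicate 1, and 79.6%, 85.2% and 81.5% with E2FA, E2FB and RBR in replicate 2. The 91 genes not settled had 41.8%, 50.5%, 26.4% and 59.3% in replicate 1, and 73.6%, 75.8% and 78.0% in replicate 2. The peaks at cytosolic genes stood lower within their lists than those at organellar genes, with a median percentile of 36.8 against 71.4 with E2FC and of 47.9, 56.2 and 55.4 against 58.4, 58.9 and 68.2 with E2FA, E2FB and RBR in replicate 2. None of the cytosolic genes passed the study's thresholds in a replicate 1 list, and 2 of the organellar genes did, against 1.18% of the other protein-coding genes. A larger share of large subunit than of small subunit genes had a peak in every list but that of E2FC. In replicate 1 it was 48.4% and 44.2% with E2FA, 63.1% and 54.0% with E2FB, 24.8% and 29.2% with E2FC, and 71.3% and 59.3% with RBR. In replicate 2 it was 82.2% and 69.0% with E2FA, 85.4% and 81.4% with E2FB, and 86.0% and 81.4% with RBR.

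A larger share of ribosomal protein genes than of other genes had a peak just before the start site in every list but that of E2FC, counted over all genes of each group with or without a peak. In the 100 bp just before the start site, 31.4% of the ribosomal protein genes had an E2FA summit in replicate 2, 41.2% an E2FB summit and 44.8% an RBR summit, against 14.9%, 18.4% and 18.6% of the other genes. In replicate 1 the same bin held an RBR midpoint at 25.3%, an E2FB midpoint at 18.6% and an E2FA midpoint at 10.98%, against 14.0%, 12.5% and 9.89%. The E2FC list differed, with 3.66% of ribosomal protein genes in that bin, against 6.82% of the other genes, and 8.84% between 201 and 300 bp upstream, against 6.97%.

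By the nearest peak, the median distance from the start site in replicate 2 was -23 bp with E2FA (quartiles -86 and 27 bp), -25 bp with E2FB and -24 bp with RBR, where negative values are upstream. At the other genes it was -20, -28 and -23 bp, so the centres hardly differed while the spread did (quartiles -125 and 60 bp with E2FA). In replicate 1 it was -168 bp with E2FA, -112 bp with E2FB, -237 bp with E2FC and -84.5 bp with RBR, against -154, -122, -173 and -89 bp. The upstream shift between replicates was present in both groups of genes, with midpoints of broad regions in replicate 1 and summits in replicate 2. Few genes lay at the edge of the window. Between 3 and 15 ribosomal protein genes per list had their nearest peak 401 to 500 bp away, and between 3 and 10 had it 501 to 600 bp away.

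**Figure D4:**
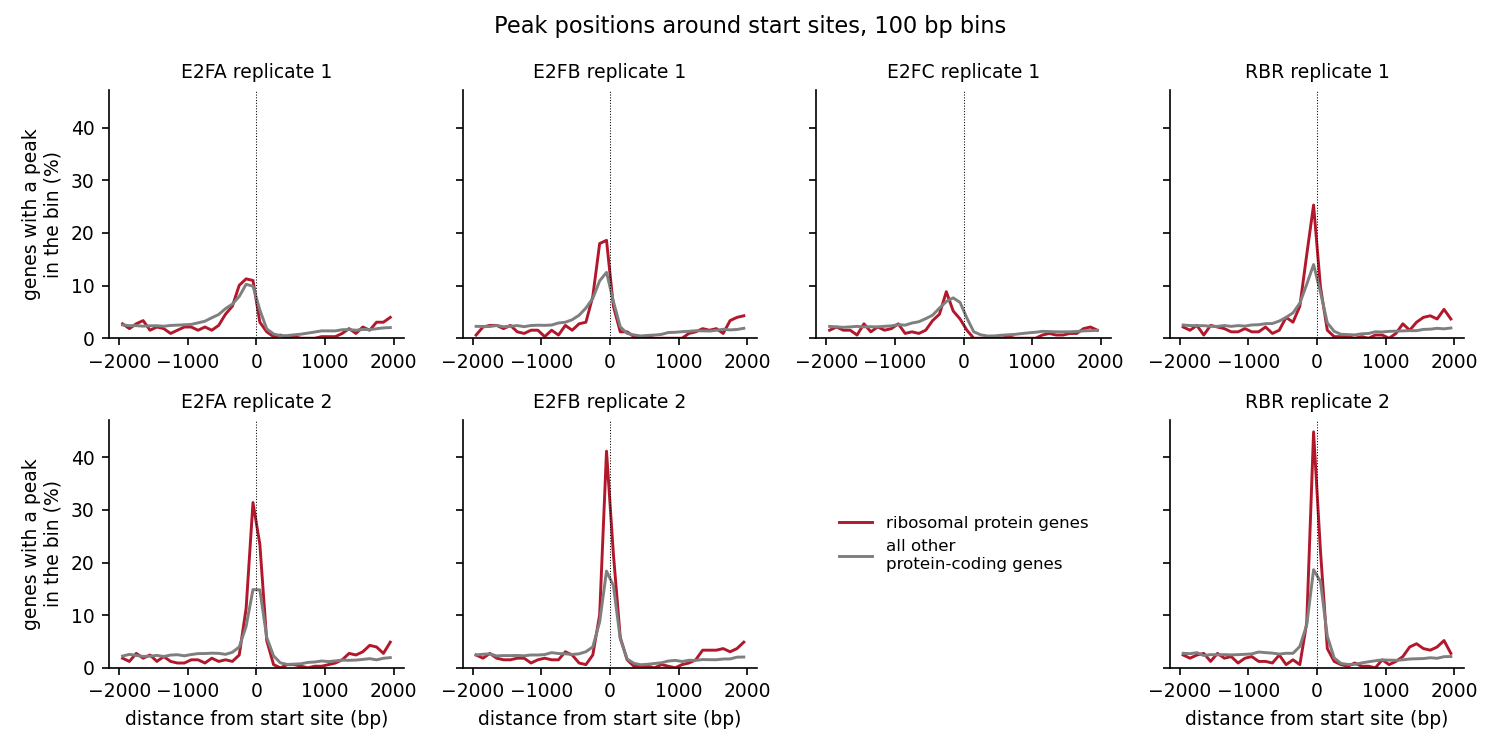
Percent of genes with a peak (midpoint in replicate 1, summit in replicate 2) in each 100 bp bin from 2000 bp upstream to 2000 bp downstream of the start site, for ribosomal protein genes (red) and other protein-coding genes (grey). The red curve is highest just upstream of the start site in RBR replicate 2, at 44.8% against 18.6%, and in the E2FC list its highest bin is 201 to 300 bp upstream.

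The promoters of these genes were rich in the elements known for them and held few E2F words. Between 250 bases before and 50 after the start site, a telo-box was present at 123 ribosomal protein genes (37.5%), against 5.85% of the other genes and 6.22% of all promoters. Site II was present at 212 (64.6%), against 21.2% and 21.7% of all. Both were present at 99 (30.2%), against 1.87%. Among the 183 cytosolic genes the shares were 50.3% for the telo-box and 76.0% for site II. In 1 gene a telo-box and a site II match overlapped. An E2F word was present at 2 ribosomal protein genes (0.610%), against 1.77% of the other genes and 1.76% of all, and at none of the cytosolic ones. The wider E2F consensus TTNNCGNN, with each N either C or G, was present at 11 (3.35%), against 3.55% of the other genes and of all promoters. It does not include every E2F word. Of the 2 genes with an E2F word, EMB3126 also held the wider consensus and RPS1 did not.

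The elements lay close to the summits. Telo-boxes of ribosomal protein genes were centred at a median of 4 bp from the start site, against -57.5 bp at other genes, and site II was centred at a median of -44.5 bp, against -75.5 bp. Of the ribosomal protein genes with site II and a replicate 2 peak, 61.4% had a match within 50 bp of the summit with E2FA, 70.1% with E2FB and 72.0% with RBR, against 46.0%, 52.6% and 55.5% of the other genes. For the telo-box the shares were 50.5%, 42.1% and 43.5%, against 27.4%, 24.2% and 23.5%. Since both elements and summits gather at the start site, their closeness is a description of position.

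**Figure D5:**
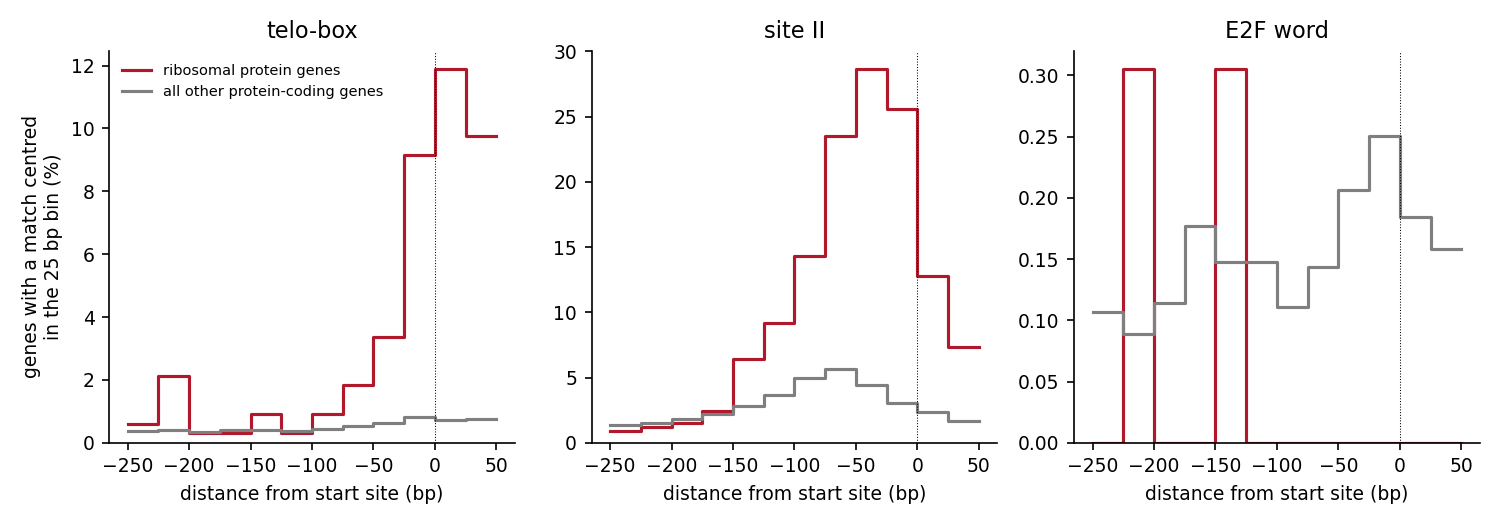
Percent of genes with a match centred in each 25 bp bin around the start site, for the telo-box, site II and the E2F words, in ribosomal protein genes (red) and other protein-coding genes (grey). Axes differ between panels, and the red steps of the E2F panel are 1 gene each, EMB3126 and RPS1.

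The share of genes with a peak in all 7 lists was similar with and without a telo-box or site II. Of the ribosomal protein genes with a telo-box, 21 of 123 had a peak in all 7 lists (17.1%), and of those without one 35 of 205 (17.1%). For site II the counts were 37 of 212 with it (17.5%) and 19 of 116 without it (16.4%), whereas among the other genes the shares were 24.9% with site II and 15.9% without. In single lists the shares differed in both directions. With a telo-box 43.1% had an E2FA peak in replicate 1 and 87.8% an RBR peak in replicate 2, against 51.2% and 82.0% without one. With site II 43.9% and 87.7% had these peaks, against 56.0% and 77.6% without it. The wider E2F consensus differed more, with 6 of 11 genes that held it in all 7 lists (54.5%, 23.4 to 83.3%), against 50 of 317 without it (15.8%, 11.9 to 20.3%). Among the other genes the shares were 44.9% with it and 16.8% without it. E2FC had a peak at 72.7% of the ribosomal protein genes with the wider consensus and at 25.9% of those without it. At the other genes the E2FC shares were 62.5% with it and 37.0% without it. With 11 genes, the shares of ribosomal protein genes with the wider consensus are imprecise.

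E2F words were also few around the peaks themselves, with between 1 and 5 ribosomal protein genes per list. Within 100 bp of the highest peak position, a word was found at 2 of 158 ribosomal protein genes with an E2FA peak in replicate 1 (1.27%) and at 1 of 218 with an RBR peak (0.459%), against 2.52% and 2.196% of the other genes with a peak. In replicate 2 the shares were 1.57% with E2FA, 1.82% with E2FB and 1.09% with RBR, against 4.23%, 3.77% and 2.78%. EMB3126 had a peak in all 7 lists, with fold enrichments of 1.62 and 5.80 with E2FA, 1.897 and 6.90 with E2FB, 2.02 with E2FC and 1.56 and 3.79 with RBR, replicate 1 first. Its peak positions, 174 to 260 bp upstream, were nearer to the start site of AT3G63480 in every list. RPS1 had a peak in 5 lists, with 2.19 and 2.90 with E2FA, 1.94 and 3.43 with E2FB and 1.89 with E2FC, and none with RBR. The replicate 1 midpoints of RPS1 lay 145 to 162 bp upstream, within 17 bp of the first base of the word printed above, and its replicate 2 summits lay 44 bp upstream with E2FA and 112 bp upstream with E2FB.

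Several of the highest peaks at ribosomal protein genes stood next to other genes. RPL12-C, the plastid L12 protein, had fold enrichments of 3.25 and 10.2 with E2FA, 3.08 and 13.7 with E2FB, 2.68 with E2FC and 2.45 and 7.44 with RBR, replicate 1 first, between the 97.0th and the 99.9th percentile of its list. All 7 peak positions lay 180 to 212 bp upstream, between 31 and 63 bp from the proline tRNA gene shown above in capitals, which spans positions -149 to -78. AT3G18740 had 2.83 and 13.05 with E2FA, 2.82 and 15.2 with E2FB, 2.80 with E2FC and 2.17 and 7.03 with RBR. In 6 of its 7 lists the peak was nearer to the start site of TSK (AT3G18730), a gene needed for genome maintenance and meristem organisation, at a distance of 8 to 34 bp. A match of the wider E2F consensus began at position -114 of AT3G18740, beyond the stretch printed above and inside the TSK gene.

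AT4G17560, an L19 protein that is organellar by annotation, had 3.17 and 11.1 with E2FA, 2.91 and 10.03 with E2FB, 2.24 with E2FC and 2.35 and 6.42 with RBR. Its 3 replicate 2 summits lay 8 to 37 bp from the start site of G3Pp4, a gene for a glycerol-3-phosphate permease read in the other direction. In replicate 1 the E2FA midpoint was also nearer to G3Pp4, at 131 bp against 154 bp, and the E2FB, E2FC and RBR midpoints, 120 to 134 bp upstream, were nearer to its own start site. AT1G12960, an L18e/L15 superfamily protein, had 3.30 and 8.35 with E2FA, 2.85 and 8.03 with E2FB, 2.45 with E2FC and 2.29 and 5.47 with RBR. Its replicate 1 midpoints were nearer to the start site of PIRL3, a leucine-rich repeat gene, and its replicate 2 summits nearer to its own. A match of the wider E2F consensus began at position -71 of AT1G12960. The replicate 2 summits there were at -64 bp with E2FA, -79 bp with E2FB and -82 bp with RBR. AT5G39600, annotated as a 39S ribosomal protein, had 2.92 and 2.1997 with E2FA, 1.92 and 2.94 with E2FB, 2.58 with E2FC and 2.08 and 2.95 with RBR, and its replicate 1 midpoints lay 383 to 427 bp upstream while its replicate 2 summits lay 19 to 39 bp upstream. RPL24A, a cytosolic L24 protein, was nearest to its own peaks in all 7 lists, with 2.40 and 3.10 with E2FA, 1.98 and 3.96 with E2FB and 2.43 and 4.52 with RBR. With E2FC it had 1.39, at the 1.54th percentile of that list.

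Such neighbours were more common at ribosomal protein genes in general. Another protein-coding start site lay within 1000 bp of 109 of them (33.2%), against 24.1% of the other genes. Of the genes with a peak in replicate 1, the highest peak was nearer to another gene's start site at 21.5% with E2FA, 19.6% with E2FB, 21.1% with E2FC and 17.0% with RBR, against 11.6%, 11.4%, 8.83% and 11.03% of the other genes. In replicate 2 the shares were 13.8%, 13.1% and 11.2% with E2FA, E2FB and RBR, against 10.3%, 10.4% and 10.3%. At the 219 ribosomal protein genes without such a neighbour, the shares with a peak in replicate 2 were 70.8%, 82.6% and 83.1%, against 51.7%, 56.5% and 58.1% of the other genes without one. A tRNA gene lay within 500 bp of 11 ribosomal protein genes (3.35%), against 1.06% of the other genes. All 11 had an E2FB and an RBR peak in replicate 1, against 57.7% and 65.3% of the 317 ribosomal protein genes without one. In replicate 2 the shares lay closer, at 81.8% and 90.9% with E2FB and RBR, against 83.9% each without a tRNA gene. At the other genes with a tRNA gene nearby the shares were 77.7% and 85.0% in replicate 1 and 87.5% and 88.2% in replicate 2. The ribosomal protein genes were also shorter, with a median length of 1561 bp against 2088 bp, and their upstream bases held 33.4% G and C against 31.2%. The part of these features in the shares of genes with a peak was not tested, other than by the count without a neighbour.

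Some families held genes that differed across the lists. Of 75 families of 2 or more genes with a shared product or symbol, which held 275 of the 328 genes, 13 had a gene with peaks in all 7 lists and another in 2 or fewer. A shared product name can join cytosolic and organellar proteins, although the L12 and L21 genes were all organellar by annotation. L12 was a split family, with RPL12-C in 7 lists, RPL12-A in 6 and RPL12-B in none. L21 was another, with RPL21C in 7 lists and NFD1, a gene needed for fusion of nuclei in the gametophyte, in none. Of the 11 genes of the 60S acidic protein family, which form the stalk of the large subunit, 3 had peaks in all 7 lists and 4 had them in 2 or fewer. The other split families among the first 8 in name order were the genes with an L10 family product, with AT1G25260 in 7 lists and AT3G12370 in 2, L11, with AT5G60670 in 7 and AT5G51610 in none, L17, with AT3G54210 in 7 and AT5G64650 in none, and L19, with AT4G17560 in 7 and AT5G47190 in 2. Of the 12 genes of the L7Ae/L30e/S12e family, 3 had peaks in all 7 lists and 2 had them in 2 lists.

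Among the families known from growth genetics, the S6, L5, L10e, L23a and L24 copies differed by 1 or 2 lists. Other families spread more widely. By product or symbol, the S13 genes and the S18 genes ranged between 3 and 7 lists and the L9 genes between 0 and 5. Each of these held cytosolic, organellar and unsettled genes. RPS6, which encodes a target of the TOR kinase pathway, had peaks in 7 lists and its copy EMB3010 in 6. RPS5A, whose loss arrests the embryo, and RPS5B had 6 each. The genes with the S5 family product, which is not the product of RPS5A and RPS5B, ranged between 0 and 6. Neither RPS5A nor RPS5B had an E2FC peak in the window. In RPS5A the fold enrichments were 1.43 and 3.40 with E2FA, 1.42 and 3.23 with E2FB and 1.36 and 3.35 with RBR, replicate 1 first, and the replicate 2 medians over the ribosomal protein genes were 2.60, 3.18 and 3.24 in the same order. PFL, named for the pointed first leaf of its mutant, had peaks in 7 lists and RPS18C in 6. RPS13A had 4. ATL5 had 4 and RPL5B 5. RPL23AA had 5 and RPL23AB 6. SAC52, whose product is L16p/L10e and not the L10 family product above, known from suppression of a dwarf mutant, had 7 and RPL10B 5. RPL24A had 7 and STV1, an L24 gene needed for gynoecium patterning, 5. None of these copies passed the study's thresholds in replicate 1.

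The 23 genes without any peak were not of 1 kind. They comprised 9 large and 11 small subunit genes, 2 of looser product and 1 other. Of these 23, 10 were cytosolic by annotation. RPS15A and PGY2, an L9 gene that acts in leaf polarity, were among them, as were AT1G26880 (L34e), AT1G33120 (L6 family), AT1G33850 (S19), AT1G64880 (S5 family) and AT2G07675 (S12/S23 family). The remaining genes in the first 10 were AT1G58684, AT1G58983 and AT1G59359, S5 family copies on chromosome 1 that share the 30-base window printed here with the telo-box in capitals (chr1:21771268-21771297 in AT1G58684, minus strand).
AT1G58684: cagactttcgaAAACCCTAatcttatgctc
AT1G58983: cagactttcgaAAACCCTAatcttatgctc
AT1G59359: cagactttcgaAAACCCTAatcttatgctc
AT1G58684 and AT1G59359 had identical bases over the whole 250 upstream, and the study's notes remove reads of low mapping quality. At such copies an absent peak and reads that cannot be placed cannot be told apart.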

How the data were processed

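Per the labels, whole seedlings with GFP fusions were used for ChIP-seq. According to the submitters' processing notes, the authors used Trimmomatic 0.38, Bowtie2 2.3.5, SAMtools 1.9, MACS2 2.2.7.1 and the TAIR10 build, and called peaks per library, whereas replicate 2 peak names carry MACS3. In the deposited lists, fold enrichment is a ratio over the local background and the authors' q-value is given as −log10. The deposited summit offset was used in replicate 2 and the midpoint in replicate 1. The lists hold no read depth, so the depth behind a peak is unknown here and low peaks were compared only within a list.

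Peaks on the 5 nuclear chromosomes were assigned to every start site within 500 bp, so a peak can count for 2 neighbouring genes, and the highest gave the fold enrichment. All peak ends lay within the chromosomes of the RefSeq reference. Elements were searched on both strands of that reference, and positions of elements were taken at their centres except where a first base is given. Python 3.11.15, NumPy 2.4.6, SciPy 1.17.1 and Matplotlib 3.10.9 were used, and the assignment was tested on simulated data. Alternatives were windows of 250 and 1000 bp, the start site inside the peak, the midpoint, the study's thresholds, the 10000 highest peaks, mRNA starts, isolated genes, stricter products and leaving out each list. The genes, lists and rules were chosen with earlier results of these data known, and the annotation classes after the lists were read.

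Genes were named by rule: the 3 highest per list, the first 10 without a peak, those past the thresholds in replicate 1, families from growth genetics, the first 8 split families and those with printed promoters. FIB1, FIB2, MCM2, NUC-L1, S6K2, PK1, TOR, TCP20, TRB1, EMB3126 and RPS1 were named outside it, after their values were seen.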

Additional observations from a re-analysis of the deposited data

How the results depend on the processing

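The median percentile of ribosomal protein genes was below that of the other genes under all 28 alternatives tried, and their share of genes with a peak in replicate 2 was above that of the other genes under every window, midpoint, mRNA, product and neighbour setting. The following values moved by more than 1 SD between replicates or, with E2FC, every list and the elements, left the 95% counting interval. With E2FC the share was 14.6% at 250 bp, 33.8% at 1000 bp and 11.3% with the start site inside the peak, against 23.6%, 52.3% and 26.2% of the other genes. With the study's thresholds the shares were 0.915%, 0.305%, 0% and 0% with E2FA, E2FB, E2FC and RBR in replicate 1 and 23.5%, 50.9% and 53.0% with E2FA, E2FB and RBR in replicate 2. With the 10000 highest peaks they were 8.23%, 15.9%, 10.98%, 10.4%, 25.6%, 30.2% and 29.0%, in the same order. The share with a peak in every list was 17.1 to 34.5% when 1 list was left out, the highest without E2FC, 7.93% at 250 bp and 24.4% at 1000 bp, against 9.44% and 30.2% of the other genes. In the 250 bases before the start site alone, the telo-box was present at 16.2% and site II at 57.6%, and the wider E2F consensus gave 3.35% in place of the E2F words. Among the cytosolic genes alone, an alternative chosen after seeing the data like the next one, the elements were present at 50.3%, 76.0% and 0%. With a window of 250 bp, 7 families were split. The share in 2 other lists moved by less than 1 SD between replicates while the order of the groups changed. For E2FB in replicate 1 it was 64.0% against 65.9% at 1000 bp and 47.9% against 48.8% with the start site inside the peak. For E2FA in replicate 1 it was 32.6% against 31.8% at 250 bp. Among genes with no other start site within 1000 bp, E2FA in replicate 1 gave 47.9% against 45.9%. The cause of these changes was not tested. No paired analysis was possible because the values are counts within single lists and come from no test.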
